A study of Mus musculus with 12 samples.

Results

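Rsad2, Ifit1, Ifit3, Isg15, Irf7, Irf9, Oasl2, Mx1 and Ifi44 are 9 mouse genes that respond to interferon. They were chosen by name from the 24541 rows of a deposited table of read counts per gene, and all 9 had reads in all 12 libraries. The libraries held polyadenylated RNA of interscapular brown adipose tissue and of posterior subcutaneous white adipose tissue from mice 6 weeks old. In each tissue 2 libraries came from wild type mice, 2 from mice with 1 copy and 2 from mice with 2 copies of Ucp1-CreEvdr, a transgene on a bacterial artificial chromosome that places Cre recombinase under Ucp1 regulatory sequences, which are active in thermogenic adipocytes. All mice were bred in house from heterozygous carriers, fed chow at room temperature and given no treatment, and no floxed allele is named in the labels. Sex, strain and the mouse behind each library are not given in the sources used here, so p-values measure the spread between libraries only.

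Type I interferons bind a receptor made of Ifnar1 and Ifnar2, whose kinases Jak1 and Tyk2 phosphorylate transcription factors, Stat2 among them. Stat2 and Irf9 are parts of ISGF3, the complex that binds the interferon-stimulated response element (ISRE) in the promoters of antiviral genes, and Irf7 amplifies the production of type I interferon. Rsad2 encodes viperin, a radical SAM enzyme that makes a chain-terminating nucleotide and has also been tied to heat production in mouse adipose tissue. Ifit1 binds foreign RNA, Ifit3 is of the same gene family, Isg15 is a ubiquitin-like modifier, Oasl2 belongs to the oligoadenylate synthetase family, Mx1 is a dynamin-like GTPase, and Ifi44 is an interferon-induced gene with a less well defined role.

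The promoters of the genes show which of them carry the letters that ISGF3 is known to bind, and those with a match are shown here. Each window below holds the 250 bases before the annotated start site in RefSeq (GRCm38.p6), written 5′ to 3′ on the gene's own strand, with matches to GAAANNGAAA or its reverse complement TTTCNNTTTC in capitals. The windows are chr12:26456453-26456702, minus strand for Rsad2, chr19:34640639-34640888, plus strand for Ifit1, chr19:34583279-34583528, plus strand for Ifit3, and chr4:156200819-156201068, minus strand for Isg15.
Rsad2: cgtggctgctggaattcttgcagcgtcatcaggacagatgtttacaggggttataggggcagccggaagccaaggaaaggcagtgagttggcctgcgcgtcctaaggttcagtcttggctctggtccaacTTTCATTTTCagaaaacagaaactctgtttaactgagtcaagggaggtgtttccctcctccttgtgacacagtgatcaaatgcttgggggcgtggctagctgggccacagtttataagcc
Ifit1: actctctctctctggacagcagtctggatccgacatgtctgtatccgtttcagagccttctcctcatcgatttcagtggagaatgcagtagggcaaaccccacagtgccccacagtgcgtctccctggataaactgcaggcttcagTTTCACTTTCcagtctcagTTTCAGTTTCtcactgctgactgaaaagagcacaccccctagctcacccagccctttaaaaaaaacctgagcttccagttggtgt
Ifit3: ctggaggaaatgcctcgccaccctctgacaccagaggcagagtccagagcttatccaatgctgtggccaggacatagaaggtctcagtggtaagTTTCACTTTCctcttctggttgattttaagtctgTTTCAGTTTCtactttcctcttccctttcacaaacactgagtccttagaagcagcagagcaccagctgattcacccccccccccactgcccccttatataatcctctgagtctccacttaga
Isg15: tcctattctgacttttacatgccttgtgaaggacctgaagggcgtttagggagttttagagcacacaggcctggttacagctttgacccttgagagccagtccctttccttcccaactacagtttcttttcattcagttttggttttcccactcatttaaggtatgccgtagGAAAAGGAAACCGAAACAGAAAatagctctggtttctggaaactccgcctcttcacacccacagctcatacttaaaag

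Windows searched on both strands ran from 250 bases before to 50 bases after the start site, and 8 of the 9 genes had one. Matches occurred in 4 of the 8. Rsad2 had 1 match, which began 120 bases before the start site. Ifit1 had 2 matches, at 104 and 85 bases before it, and Ifit3 had 2, at 156 and 122 bases. In Isg15 3 matches at 78, 72 and 66 bases overlapped each other. No window of Irf7, Irf9, Oasl2 or Ifi44 held these exact letters. Among all 27025 genes with such a window 3.99% had a match. Among matched genes of other lists, 13 of 33 other type I interferon targets, 11 of 18 interferon gamma targets and 10 of 18 interferon genes had one. The letters TTCNNNGAA, a core of the gamma-activated site, were found in 0 of the 8 genes and in 9.55% of all genes with a window.

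In mm10 the genes lie on 8 chromosomes. Rsad2 occupies chr12:26442746-26456452, Ifit1 chr19:34640871-34650009, Ifit3 chr19:34583531-34588731 and Isg15 chr4:156199424-156200818. Irf7 occupies chr7:141262706-141266481, Irf9 chr14:55603571-55610030 and Oasl2 chr5:114896936-114912234. Mx1 occupies chr16:97447035-97462907 and Ifi44 chr3:151730922-151749960. Ifit3 shares 51.2% of its 50-base words with its near copy Ifit3b, so its count is uncertain, and Ifit1 and Mx1 share 7.13% and 4.37% with relatives and other genes. Irf9 overlaps Rnf31 on the same strand, Irf7 overlaps Phrf1 on the other strand, and the strand setting of the counting is not given.

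Total counts ran from 15679884 to 31814056 per library, and the 2 libraries of a group correlated at 0.985 to 0.994 over log2 CPM (counts scaled to library size) while differing by more than sampling noise. The row for Cre held 0 reads in the 4 wild type libraries, 606 and 444 in brown libraries with 1 copy and 3243 and 1770 in brown libraries with 2 copies. In white adipose the Cre row held 83 and 0 reads with 1 copy and 0 in both libraries with 2 copies. The groups also differed in markers of other cells, given as summed CPM scaled within each tissue. In white adipose 4 B cell markers summed to 1000 to 1064 CPM in the 4 transgenic libraries, against 2.87 and 3.91 in wild type libraries. T cell markers behaved alike (669 to 897, against 4.41 and 6.42), as did plasmacytoid dendritic cell markers (96.4 to 129.7, against 1.22 and 1.93). Sums of 3 adipocyte markers were 2665 to 6846 CPM in transgenic white libraries and 11715 and 12706 in wild type ones. In brown adipose skeletal muscle markers summed to 1.19 to 1.76 CPM in transgenic libraries, where up to 4 of the 6 were at 0, and to 1907 and 796 in wild type libraries. In white adipose 1 library stood apart in these markers, replicate 1 with 1 copy at 2003 CPM, against 8.89 to 111.0 in the other 5, and DESeq2 called all 6 markers as higher with 1 copy than in wild type where edgeR called 0, with 2 at an unadjusted p under 0.05. That library enters every white result with 1 copy, and without it 0 of the 9 interferon genes were called there by edgeR. The brown adipocyte markers Ucp1 and Zic1 were present in all 6 brown libraries, and the white adipocyte markers Lep, Hoxc10 and Nnat in all 6 white libraries. Of these, Ucp1, Lep and Nnat had reads in all 12 libraries. The 3 white adipocyte markers summed to 1173 and 611 CPM in wild type white libraries, 355 and 626 with 1 copy and 87.2 and 155.5 with 2 copies. In tissue RNA, fewer cells of a type and less RNA per cell cannot be told apart.

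**Figure D1:**
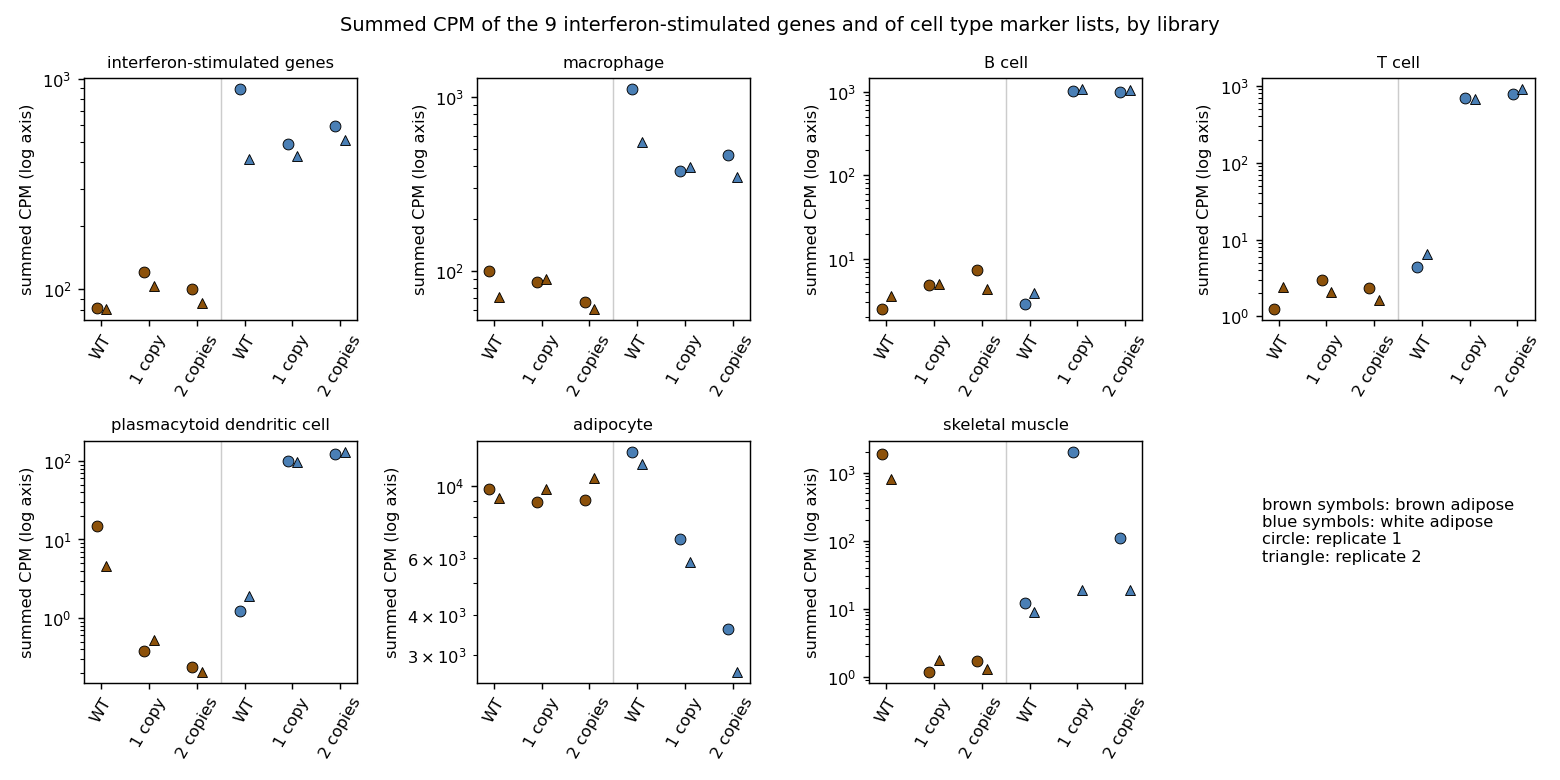
Summed CPM (log axis), scaled within each tissue, of the 9 interferon-stimulated genes and of 6 marker lists in each library, with brown symbols for brown adipose, blue for white, circles for replicate 1 and triangles for replicate 2. The 4 transgenic white libraries stand far above the wild type ones in B cell, T cell and plasmacytoid dendritic cell markers, and wild type white replicate 1 stands highest in the interferon genes (889.6 CPM) and in macrophage markers (1108 CPM). Over the brown libraries, Cox6a2 held 392 of the reads of the plasmacytoid dendritic cell list, and each other marker held 0 to 17.

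All 9 genes were expressed at lower levels in brown than in white adipose of wild type mice. Summed over the 9 genes, brown wild type libraries held 99.2 and 96.6 CPM and white wild type libraries 735.1 and 345.9 CPM, on the scale of 1 fit of all 12 libraries. The log2 fold change of brown over white ran from -1.11 ± 0.13 (SE) for Irf9 to -4.70 ± 0.71 for Mx1, and Rsad2 stood next to Irf9 at -1.44 ± 0.33. All 9 passed an adjusted p of 0.05 in edgeR's quasi-likelihood test over 15559 genes, of which 61.1% passed in either direction and 32.1% as lower in brown. Their median log2 fold change was -2.72, against -0.04 over all genes tested, and all 9 passed in each of the 4 fits that left out 1 wild type library. Without white wild type replicate 1 the median was -1.92 and Rsad2 stood at -0.79, the smallest of the 9 differences. Macrophage markers moved with this difference: 6 of 6 were lower in brown, and their sum on that scale was 121.0 and 85.0 CPM in brown wild type libraries, against 915 and 457 in white ones, and the part of these cells in the result was not tested.

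Per kilobase of exon, the order of the 9 genes differed between the tissues of wild type mice. Exon length was that of all annotated exons of a gene together, which need not be the length of the transcripts expressed. In brown adipose Isg15 was highest at 8.53 ± 0.798 CPM per kb (SD, n = 2), followed by Irf9 at 5.22 ± 0.322 and Rsad2 at 4.77 ± 0.029. Irf7 (3.95 ± 0.553) and Ifit3 (3.94 ± 0.463) overlapped each other. Ifit1 stood at 3.10 ± 0.105 CPM per kb, Oasl2 at 1.202 ± 0.026, Ifi44 at 0.671 ± 0.166 and Mx1, with 21 and 9 reads, at 0.237 ± 0.208. In white adipose Ifit3 (51.7 ± 32.1) and Isg15 (49.98 ± 35.7) were highest and Ifi44 (2.70 ± 1.10) lowest. There every pair of neighbours in the order overlapped except Irf9 and Mx1, so most of that order lay within the spread of the 2 libraries. Rsad2 was the third highest in brown wild type adipose, and in white only Irf9, Mx1 and Ifi44 were below it.

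**Figure D2:**
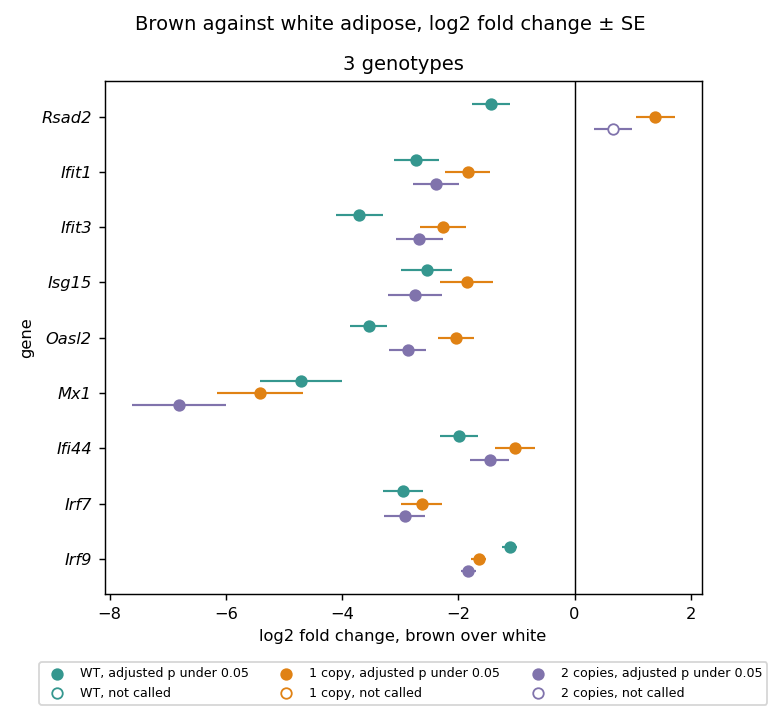
Log2 fold change of brown over white adipose with its SE (horizontal axis) for each of the 9 genes, in wild type mice and in mice with 1 and 2 transgene copies. Filled circles passed an adjusted p of 0.05. All genes lie left of 0 in wild type mice, while Rsad2 lies right of 0 in both transgenic genotypes.

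In transgenic mice Rsad2 alone of the 9 genes had the opposite sign. With 1 copy it stood at 14.4 and 9.98 CPM per kb in brown libraries, against 5.18 and 4.07 in white libraries. Its log2 fold change of brown over white was 1.39 ± 0.33 (adjusted p = 0.00456), and the other 8 genes were lower in brown, from -1.02 ± 0.34 for Ifi44 to -5.41 ± 0.74 for Mx1. All 9 were thus called, where 70.1% of all genes were, and 40.6% of all genes as lower in brown. The call of Ifi44 ended in 3 of the 4 fits without 1 library with 1 copy (adjusted p of 0.0747 to 0.0866), and Rsad2 held in all 4, at 1.11 to 1.63. With 2 copies Rsad2 stood at 9.37 and 7.66 CPM per kb in brown libraries and 5.35 in both white libraries, a log2 fold change of 0.67 ± 0.33 that missed the threshold (adjusted p = 0.0913) but passed with DESeq2 (0.77, adjusted p = 0.0216). The other 8 genes passed as lower in brown, where 74.4% of all genes passed in either direction and 42.3% as lower, and the median of all genes was -0.24. In brown adipose of both transgenic groups Rsad2 was the highest of the 9 genes per kb, at 12.2 ± 3.10 with 1 copy and 8.51 ± 1.21 with 2 copies, clear of the next gene in both. In white adipose of both groups it was next to the lowest, at 4.63 ± 0.789 CPM per kb with 1 copy and 5.35 in both libraries with 2 copies. These orders rest on annotated exon length, and Irf9 overlaps Rnf31 on the same strand. In mean CPM without length, Rsad2 stood at 43.6 and Irf9 at 24.7 in brown adipose with 1 copy, and at 30.8 and 25.1 with 2 copies.

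Within brown adipose Rsad2 rose in mice with 1 copy of the transgene, and no other gene of the 9 passed the test. Rsad2 was at 17.1 and 17.2 CPM in wild type libraries, 51.4 and 35.7 CPM with 1 copy and 34.1 and 27.6 CPM with 2 copies. Both transgenic groups were above both wild type libraries, and both libraries with 2 copies were below both with 1 copy. The log2 fold change of 1 copy over wild type was 1.34 ± 0.19 (adjusted p = 0.0147, edgeR), or 2.54-fold, and it was the only call among the 9 genes, where 4.07% of 13414 genes were called and 1.52% were higher. For 2 copies over wild type it was 0.84 ± 0.19 (adjusted p = 0.0834), and 0 of the 9 genes were called there, where 1.29% of all genes were. At an unadjusted p under 0.05 that comparison held 2 of the 9, Rsad2 and Isg15, and DESeq2 called 1, Rsad2. Between 2 copies and 1 copy the difference of -0.50 ± 0.19 in Rsad2 missed the threshold (adjusted p = 0.179), 0 of 9 were called by edgeR or DESeq2, 2 (Rsad2 and Oasl2) had an unadjusted p under 0.05, and 1.95% of all genes passed. Of the 9 genes, 8 had a negative log2 fold change there, as did 6786 of all 13414 genes, and the medians were -0.29 and -0.004.

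The call for Rsad2 with 1 copy ended in 3 of the 6 fits that left out 1 brown library. It held without replicate 2 of the 1-copy group, and without either library with 2 copies, which are not part of this difference. Without brown wild type replicate 1 its log2 fold change was 1.33 (adjusted p = 0.0692), without wild type replicate 2 it was 1.34 (0.0535), and without replicate 1 of the 1-copy group it was 1.06 (0.102). Wild type brown libraries also held the skeletal muscle transcripts described above, and the part of muscle RNA in this difference was not tested.

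No other antiviral effector of the 9 genes passed the test in brown adipose. Oasl2 had 6.22 and 6.49 CPM in wild type libraries, 8.99 and 8.61 with 1 copy and 7.004 and 6.02 with 2 copies. Ifit3 had 5.19 and 6.21 CPM in wild type libraries, 7.995 and 8.02 with 1 copy and 7.004 and 6.12 with 2 copies. Both genes were thus above both wild type libraries with 1 copy and overlapped wild type with 2 copies, and neither passed the test (adjusted p of 0.205 and 0.218 with 1 copy). Isg15, by contrast, had its highest values in wild type, at 4.96 and 5.74 CPM, with 3.998 and 3.98 with 1 copy and 2.57 and 3.74 with 2 copies. Its log2 fold changes over wild type of -0.43 ± 0.25 with 1 copy and -0.76 ± 0.26 with 2 copies did not pass. Ifit1 lay between 4.67 and 7.03 CPM in the 6 brown libraries, Ifi44 between 2.57 and 4.77 and Mx1 between 0.28 and 1.198, and for Mx1 that was 5 to 21 reads per library. Of the transcription factors, Irf7 lay between 9.86 and 14.5 CPM and Irf9 between 22.4 and 27.3, with log2 fold changes over wild type between -0.02 and 0.11 and no SE above 0.22. With 1 copy both libraries were above both of wild type for 4 of the 9 genes and below for 2, where 27.5% and 26.6% of all genes did so.

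**Figure D3:**
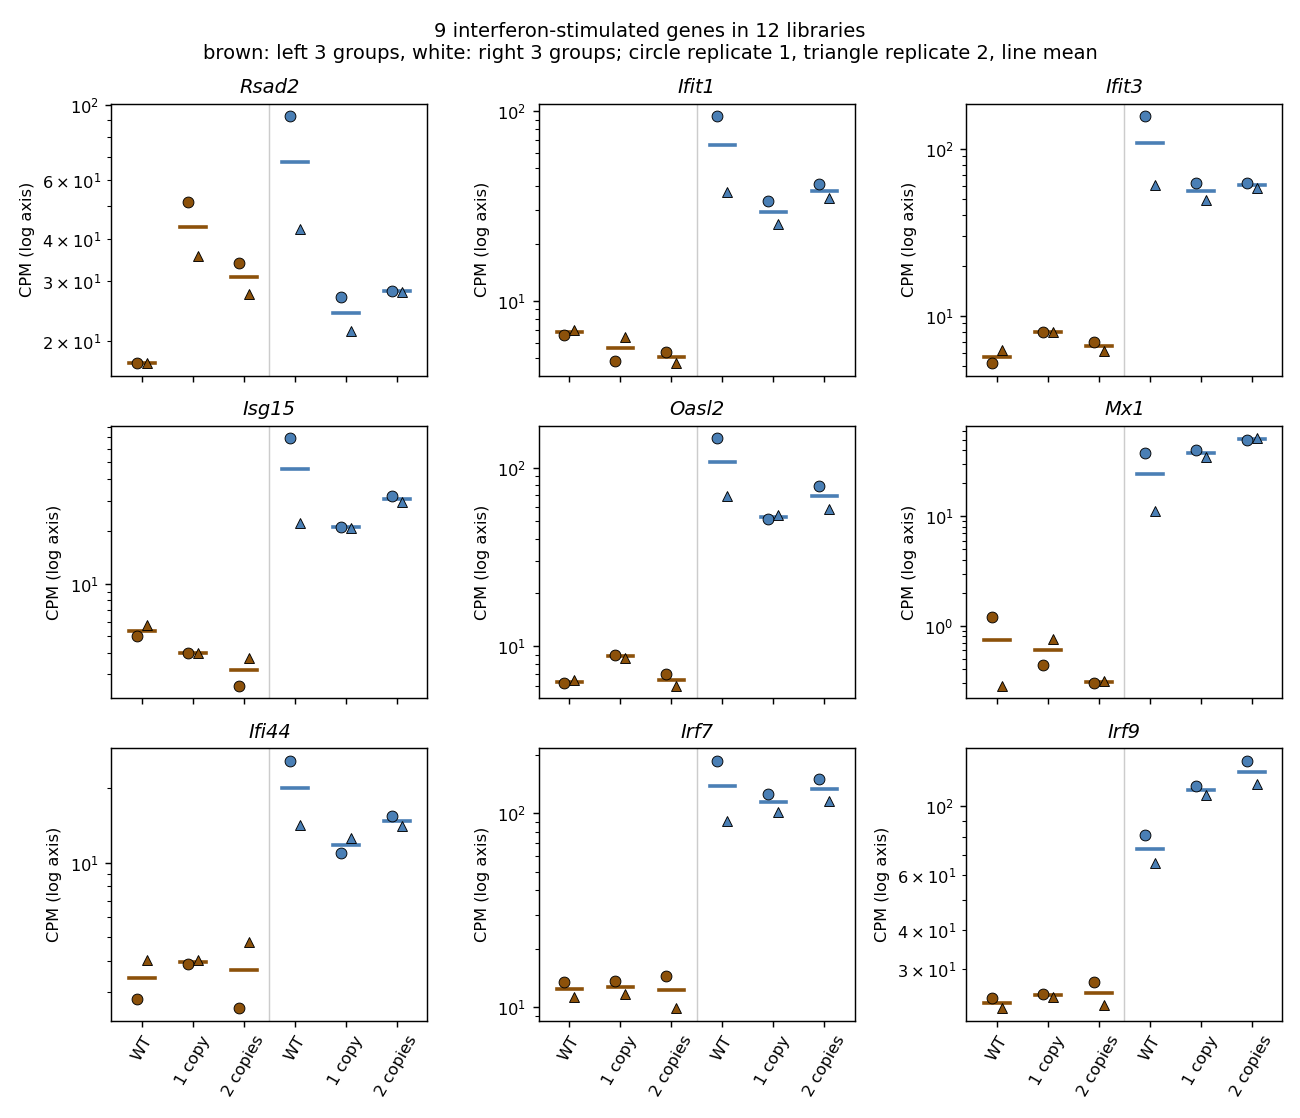
CPM (log axis), scaled within each tissue, of each of the 9 genes in every library, with the 3 brown groups on the left of each panel, the 3 white groups on the right and a line at each group's mean. In the Rsad2 panel the 4 transgenic libraries lie above both wild type ones in brown adipose (27.6 to 51.4 CPM, against 17.1 and 17.2) and below both in white adipose (21.3 to 28.1 CPM, against 92.6 and 42.8).

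In white adipose of transgenic mice Rsad2 was lower and Irf9 higher than in wild type, and the other 7 genes did not pass the test. Rsad2 had 92.6 and 42.8 CPM in wild type libraries, 27.0 and 21.3 with 1 copy and 28.1 and 27.9 with 2 copies, so that all 4 transgenic libraries lay below both wild type ones. Its log2 fold change over wild type was -1.49 ± 0.37 with 1 copy (adjusted p = 0.0211) and -1.27 ± 0.36 with 2 copies (0.0281). Irf9 had 80.6 and 65.8 CPM in wild type libraries, 116.2 and 109.0 with 1 copy and 140.2 and 118.1 with 2 copies, without overlap between transgenic and wild type libraries. It rose by a log2 fold change of 0.62 ± 0.13 with 1 copy (adjusted p = 0.00971) and of 0.82 ± 0.13 with 2 copies (0.00242). These were 2 of 9 genes in each comparison, where 52.0% and 61.0% of 15287 genes were called with 1 and 2 copies, a smaller share of the 9 genes than of all genes in these fits. With 1 copy this turned round with DESeq2, which called 7 of 9 and 7974 of 15287, in 1 fit of 12 libraries, with 5 of 9 and 7635 of 15559, and without wild type replicate 2, with 8 of 9. As higher, 28.4% and 32.1% of all genes were called with 1 and 2 copies, and as lower 23.6% and 28.9%. At an unadjusted p under 0.05 the 9 genes held 5 with 1 copy and 2 with 2 copies. The 5 were Rsad2, Irf9, Ifit1, Oasl2 and Ifi44, and of them only Irf9 was higher. The median log2 fold change of the 9 genes was -0.96 with 1 copy and -0.57 with 2 copies, against 0.01 over all genes in both. Without wild type replicate 1 these medians were -0.12 and 0.05, so the sign with 2 copies turned on 1 library. Between 2 copies and 1 copy edgeR and DESeq2 each called 0 of the 9 genes, and 0 had an unadjusted p under 0.05, where 1.86% of all genes were called. All 9 had a positive log2 fold change there, as did 7743 of all 15287 genes, and the medians were 0.32 and 0.005.

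The 2 wild type white libraries differed more than the 2 libraries of any other group in 7 of the 9 genes, all but Mx1 and Ifi44. Replicate 1 was above replicate 2 in all 9 genes, by 1.23-fold in Irf9, 1.82-fold in Ifi44, 2.05-fold in Irf7, 2.09-fold in Oasl2, 2.17-fold in Rsad2, 2.51-fold in Ifit1, 2.59-fold in Ifit3, 3.06-fold in Isg15 and 3.39-fold in Mx1. Macrophage markers moved the same way, with Mrc1 at 238.2 and 104.5 CPM and Adgre1 at 55.8 and 28.4 in the 2 libraries. The sum of the list was 346 to 464 CPM in the 4 transgenic white libraries and 1108 and 548 in the wild type ones, and its part in the result was not tested. Without wild type replicate 1, Rsad2 kept its direction at -0.82 with 1 copy (adjusted p = 0.00854) and -0.61 with 2 copies (0.0183), and Irf9 stood at 0.78 and 0.97 (0.00581 and 0.00171). In that fit Mx1 passed as higher in both transgenic groups, at 1.75 and 2.17, and Isg15 with 2 copies at 0.45. Without wild type replicate 2, 8 of the 9 genes were called in each comparison, 7 of them lower with 1 copy and 6 lower with 2 copies. The calls of Rsad2 also ended without either library of the transgenic group tested (log2 fold changes of -1.68 and -1.33 with adjusted p of 0.0631 and 0.104 with 1 copy, 0.106 and 0.110 with 2 copies), and that of Irf9 with 1 copy ended without replicate 1 of that group (0.0602).

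Ifit1 and Ifit3 had their highest value in the same wild type library. Ifit3 had 157.2 and 60.8 CPM in wild type libraries, 62.3 and 49.7 with 1 copy and 62.7 and 57.9 with 2 copies. Ifit1 had 94.0 and 37.5 CPM in wild type libraries, 33.5 and 25.4 with 1 copy and 41.0 and 34.6 with 2 copies. Wild type replicate 2 lay within the range of the 4 transgenic libraries in both genes. With 1 copy alone, both libraries of Ifit1 were below both of wild type, as were those of Isg15, Oasl2 and Ifi44. None of these passed the test, and the share of all genes separated in this way in white adipose is not given here. Oasl2 had 145.7 and 69.7 CPM in wild type libraries, 51.9 and 54.1 with 1 copy and 79.0 and 59.0 with 2 copies, and its log2 fold change with 1 copy, -1.02 ± 0.36, came nearest to the threshold among those not called (adjusted p = 0.0593). Isg15 had 68.8 and 22.5 CPM in wild type libraries, 21.3 and 20.8 with 1 copy and 32.0 and 29.5 with 2 copies, and Ifi44 lay between 10.9 and 25.8 CPM in the 6 libraries. Mx1 differed in pattern: wild type libraries had 38.0 and 11.2 CPM, libraries with 1 copy 40.4 and 35.0 and libraries with 2 copies 49.4 and 51.6, with log2 fold changes over wild type of 0.62 ± 0.53 and 1.04 ± 0.53 that did not pass. Irf7 had 186.9 and 91.1 CPM in wild type libraries and 101.2 to 150.3 in the 4 transgenic ones, which lay between them.

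**Figure D4:**
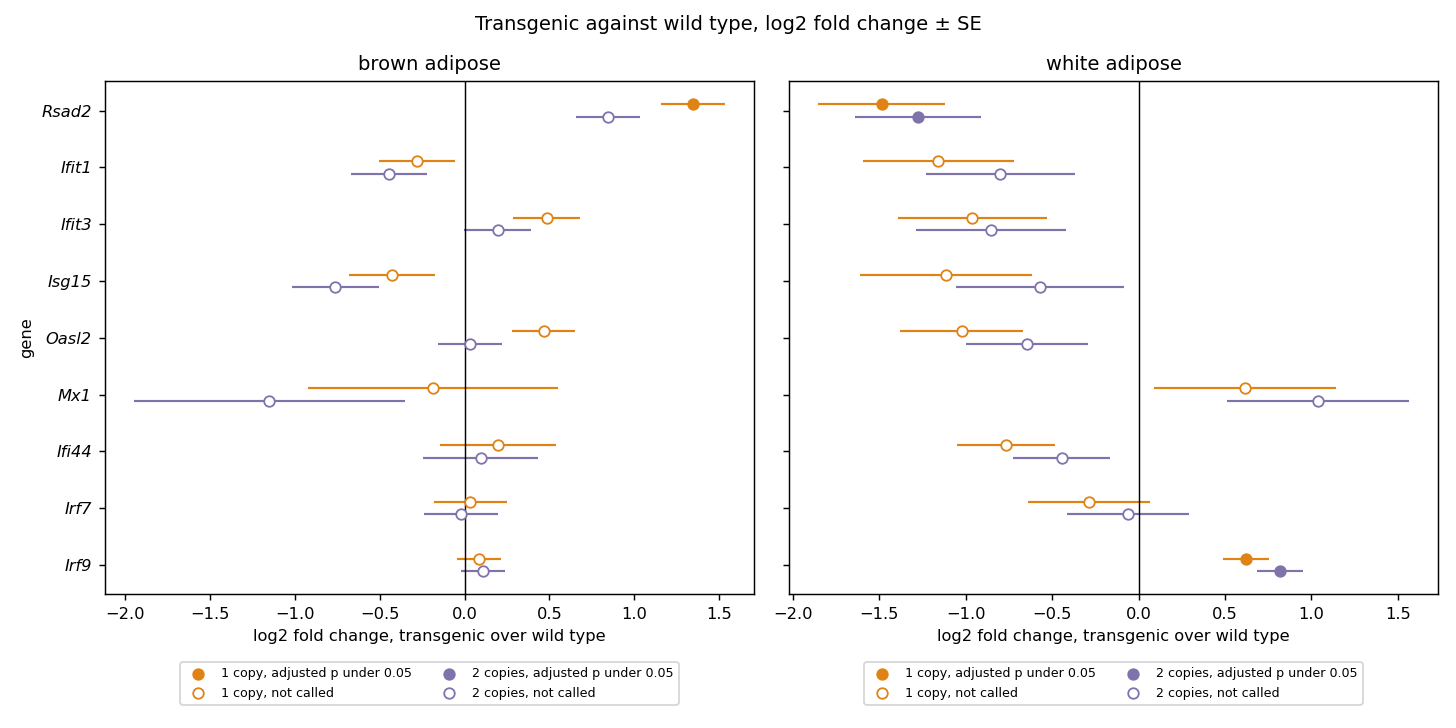
Log2 fold change of transgenic over wild type with its SE (horizontal axis) for each of the 9 genes, brown adipose in the left panel and white adipose in the right. Filled circles passed an adjusted p of 0.05: Rsad2 with 1 copy in brown (1.34), and Rsad2 (-1.49 and -1.27) and Irf9 (0.62 and 0.82) with 1 and 2 copies in white.

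The difference in Rsad2 between transgenic and wild type mice was not the same in brown as in white adipose. The difference of the log2 fold changes, brown minus white, was 2.83 ± 0.46 with 1 copy (adjusted p = 0.00257) and 2.11 ± 0.46 with 2 copies (0.00636), by a test of that difference in 1 fit of all 12 libraries. The groups also differ in the B cell, macrophage and muscle marker sums given above, whose part was not tested. The difference in Rsad2 passed in each of the 8 fits without 1 of the libraries concerned, at 2.18 to 3.28 with 1 copy and 1.45 to 2.56 with 2 copies. Irf9 differed in the other direction, by -0.53 ± 0.18 with 1 copy (0.0446) and -0.72 ± 0.18 with 2 copies (0.00904), where the call with 2 copies held in 8 of 8 such fits and that with 1 copy in 1 of 8. Oasl2 differed by 1.49 ± 0.43 with 1 copy (0.0283, held in 2 of 8 fits) and by 0.66 ± 0.44 with 2 copies (0.256). The counts were 3 of 9 genes with 1 copy, where 32.6% of all genes were called, and 2 of 9 with 2 copies, where 42.2% were. A median-of-ratios scaling moved the median of all genes from 0.01 to 0.15 with 1 copy and from -0.03 to 0.09 with 2 copies, and with it the 1-copy difference of Irf9 was -0.39 (0.115).

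Cmpk2, which encodes a mitochondrial nucleotide kinase, lies next to Rsad2 on chromosome 12 on the other strand, with start sites 12752 bases apart, and was looked at after its values were seen. It had 12.3 and 12.2 CPM in wild type brown libraries, 17.4 and 16.8 with 1 copy and 15.5 and 15.4 with 2 copies. In white adipose it had 59.3 and 36.6 CPM in wild type libraries, 32.5 and 26.5 with 1 copy and 36.2 and 32.4 with 2 copies. It thus lay above wild type in all 4 transgenic brown libraries and below it in all 4 transgenic white ones, but none of these within-tissue differences passed the test (adjusted p of 0.0887 with 1 copy in brown and 0.0590 in white). Such separation is common with 2 libraries a group: 27.5% of all genes lay above wild type in both brown libraries with 1 copy. The difference between the tissues was 1.19 ± 0.28 with 1 copy (0.00996, held in 8 of 8 fits) and 0.81 ± 0.28 with 2 copies (0.0387, held in 1 of 8).

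The interferons themselves were close to absent from the counts. Of 18 interferon genes, among them Ifnb1, the Ifna genes, Ifng and the interferon lambda genes Ifnl2 and Ifnl3, 14 had 0 counts in all libraries. Ifnb1 had 1 read, Ifnz 1 and Ifnab 3 over the 12 libraries. Ifng, the type II interferon made by T and natural killer cells, had 73 reads, 72 of them in white adipose. Its white libraries held 1 and 5 reads in wild type, 17 and 12 with 1 copy and 19 and 18 with 2 copies. It was named after its values were seen, and its log2 fold changes over wild type were 2.10 ± 0.68 with 1 copy (adjusted p = 0.0408) and 2.39 ± 0.66 with 2 copies (0.0209). The 1-copy call of Ifng did not hold with DESeq2 (0.0618), with no filter on low counts (0.0558) or in 5 of 6 fits without 1 library (all but that without wild type replicate 2), and the 2-copy call ended in 3 of 6 such fits, without wild type replicate 1 or either library with 2 copies. T cell markers were higher in the same libraries, and their part was not tested.

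Of the receptors and kinases upstream, 0 of 11 genes passed in brown adipose in either transgenic group, by edgeR or DESeq2, and 7 of 11 with 1 copy and 9 of 11 with 2 copies passed in white adipose, where 52.0% and 61.0% of all genes did. At an unadjusted p under 0.05 the brown counts were 5 with 1 copy and 1 with 2 copies. In white adipose 6 were higher and 1 lower with 1 copy, and 7 higher and 2 lower with 2 copies. The receptor chain Ifnar1 had 75.3 and 74.2 CPM in wild type white libraries, 141.4 and 137.3 with 1 copy and 139.1 and 146.3 with 2 copies. The genes lower there were Ifngr1 with 1 copy, and Ifngr1 and Ifnar2 with 2 copies. Stat2, a partner of Irf9 in ISGF3, was picked out after its values were seen. It did not pass in white adipose (log2 fold changes over wild type of -0.10 ± 0.25 with 1 copy and 0.07 ± 0.25 with 2 copies) or in brown adipose (-0.03 ± 0.11 and -0.06 ± 0.11).

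Most other type I interferon targets were lower in brown than in white adipose, and between genotypes edgeR called them about as often as all genes or less. In wild type mice 41 of 43 tested were lower in brown than in white adipose and 2, Ifi27 and Helz2, were higher. Over all genes 61.1% were called there, and 32.1% as lower in brown. Rtp4, a chaperone of receptors at the cell surface, was lower in brown by -2.62 ± 0.21, and Ifi27 was higher by 1.93 ± 0.15. In brown adipose 2 of 40 were higher with 1 copy than in wild type, Dtx3l (0.78 ± 0.15) and Tor3a (0.70 ± 0.15, named after its values were seen), and 0 were lower, where 4.07% of all genes were called. Of the 40, 30 had a positive log2 fold change there, as did 6824 of all 13414 genes, and the medians were 0.25 and 0.01. DESeq2 called 4 of the 40 (3 higher, 1 lower) and 1044 of all genes, and 12 of the 40 had an unadjusted p under 0.05. With 2 copies edgeR called 0 of 40, DESeq2 called 3, and 7 had an unadjusted p under 0.05, where edgeR called 1.29% of all genes and DESeq2 683. Between 2 copies and 1 copy in brown adipose 32 of 40 had a negative log2 fold change, as did 6786 of all 13414 genes. The median of the 40 was -0.24, and edgeR called 0, where it called 1.95% of all genes. In white adipose 10 were higher and 8 lower with 1 copy, and 12 were higher and 8 lower with 2 copies, with medians of -0.16 and 0.08. These 18 and 20 of 43 genes compare with 52.0% and 61.0% of all genes called. Between 2 copies and 1 copy in white adipose edgeR called 1, Ifi27, at -0.69 ± 0.10, and DESeq2 called 2, where edgeR called 1.86% of all genes and DESeq2 1221. The call of Ifi27 ended in 4 of 6 fits without 1 library, each without 1 of the 4 transgenic libraries.

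Among genes best known as targets of interferon gamma, most passed as higher in white adipose of transgenic mice, and 3 of 22 did in brown adipose with 1 copy, where 1.52% of all genes did. The 3 were the guanylate-binding proteins Gbp7 (1.18 ± 0.20, adjusted p = 0.0244) and Gbp9 (0.82 ± 0.16, 0.0338) and the transcription factor Irf1 (0.65 ± 0.13, 0.0344). All 22 had a positive log2 fold change there, with a median of 0.63 against 0.01 over all genes, of which 6824 of 13414 were positive. Trim21, an antibody receptor in the cytosol, was higher as well (1.11 ± 0.18, 0.0214), the only call among 8 negative regulators. Each of these 4 calls, like that of Dtx3l, ended without either library of the 1-copy group, and that of Tor3a ended in 5 of 6 fits without 1 library. With 1 copy DESeq2 called 7 of the 22 gamma targets, all higher, and 410 of all genes as higher, and 11 of the 22 had an unadjusted p under 0.05. With 2 copies the brown median of the gamma targets was 0.17 and edgeR called 0 of 22, where DESeq2 called 1 and 3 had an unadjusted p under 0.05. From 1 copy to 2 copies 21 of the 22 had a negative log2 fold change (median -0.49), as did 6786 of all 13414 genes. There edgeR called 0 of the 22, and DESeq2 called 2, both lower, and 974 of all genes.

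In white adipose 17 of 24 gamma targets were higher with 1 copy and 19 with 2 copies, and 0 were lower by edgeR or DESeq2, where 28.4% and 32.1% of all genes were higher. Of those not called, 4 with 1 copy and 3 with 2 copies had negative log2 fold changes. Ciita, the activator of class II antigen presentation genes, had 7.27 and 6.91 CPM in wild type white libraries, 131.9 and 136.7 with 1 copy and 98.6 and 114.4 with 2 copies. Irf8, a transcription factor of B cells and dendritic cells, had 16.0 and 16.6 CPM in wild type libraries, 189.1 and 197.9 with 1 copy and 227.6 and 207.1 with 2 copies. The nuclease Dnase1l3, the DNA sensor Aim2 and Gbp8 had log2 fold changes over wild type of 4.87, 2.49 and 4.80 with 1 copy. All 8 negative regulators were higher in both transgenic groups in white adipose, and sensors and adaptors split, with 9 of 20 higher and 5 lower with 1 copy and 10 higher and 5 lower with 2 copies, where 52.0% and 61.0% of all genes were called in either direction. The B and T cell sums given above were higher in the same transgenic libraries, and the part of lymphocytes in these lists was not tested.

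Genes with the most similar pattern over the 12 libraries were sought by Pearson's r with the mean of the 9 genes, each centred on its tissue, among 11669 genes. These were Ms4a6c (r = 0.914), Bst2 (0.899), Msr1 (0.894), Rtp4 (0.894), Alox5ap (0.889) and Clec4a3 (0.880). Bst2 and Rtp4 are on the list of type I targets, and Msr1 encodes a macrophage scavenger receptor. All points share the libraries, and wild type white replicate 1 is the highest point for 7 of the 9 genes. Within the 9, r with the mean of the other 8 was highest for Oasl2 (0.863) and Ifit3 (0.841), 0.519 for Rsad2, 0.141 for Mx1 and -0.165 for Irf9. In the 6 white libraries Ifit1, Ifit3, Isg15, Irf7, Oasl2 and Ifi44 each had r between 0.882 and 0.978, whereas in the 6 brown libraries the same 6 lay between -0.143 and 0.762.

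**Figure D5:**
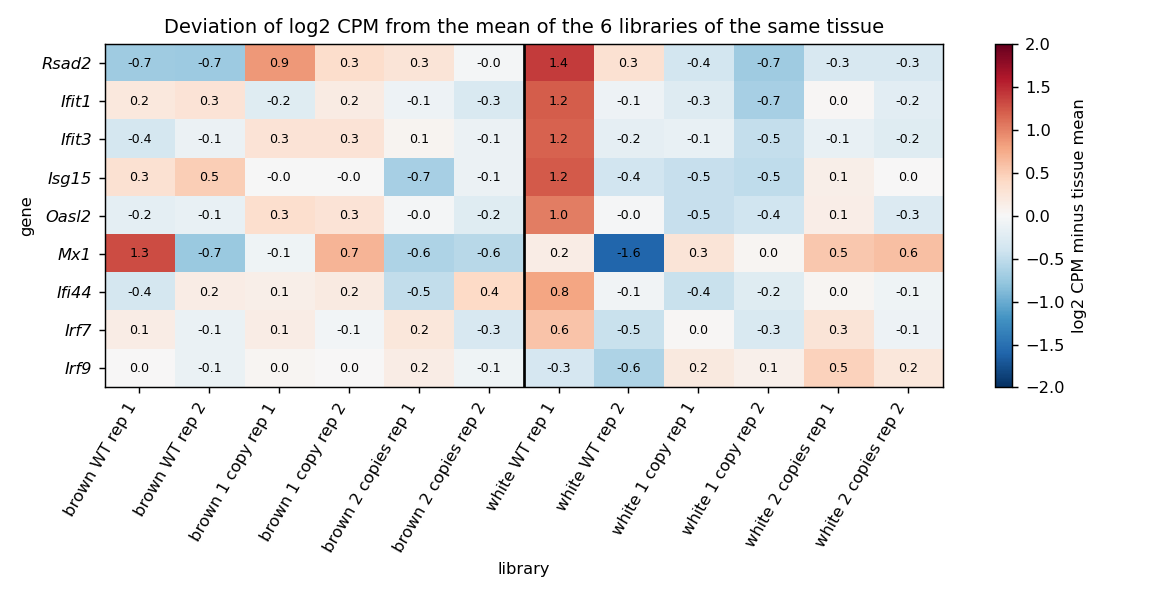
Deviation of log2 CPM from the mean of the 6 libraries of the same tissue, for the 9 genes (rows) in the 12 libraries (columns), brown left and white right, red above and blue below the mean. Wild type white replicate 1 is above the mean in 8 of the 9 rows, Irf9 being the exception, and Rsad2 is below the mean in both wild type brown libraries.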

How the data were processed

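Polyadenylated RNA was measured in 12 libraries, 2 for each genotype and tissue. The deposited values are raw counts per gene that the authors made with STAR and featureCounts (Subread) on mm10, per the submitters' processing notes, and per the labels' protocols the library kit was stranded. Versions, annotation, strand setting and filters are not given in the sources used here. Groups come from the labelled genotype and tissue, and replicate numbers follow sample order only.

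Genes were kept with filterByExpr and scaled with TMM in edgeR 4.0.16 (limma 3.58.1, R 4.3.3). The quasi-likelihood test (robust, two-sided) had Benjamini-Hochberg adjustment over all genes tested and a threshold of 0.05. Each tissue was fitted alone for genotype comparisons (13414 genes in brown, 15287 in white, 3 residual degrees of freedom). Comparisons between tissues, and of genotype effects between tissues, came from 1 fit of 12 libraries (15559 genes, 6 residual degrees of freedom). CPM used the TMM-scaled library size of the tissue's fit, and CPM per kb that of the 12-library fit over GENCODE vM21 exon length. Standard errors are the absolute log2 fold change over the square root of F. DESeq2 1.42.0, median-of-ratios scaling, other filters on low counts, 1 fit for all genotype comparisons and leaving out each library were alternatives. Steps were tested on simulated data, and figures were drawn in Python 3.11.15 with matplotlib 3.10.9.

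The genes and the lists around them were chosen with earlier results of these data known. Beside the 9 genes, the text names in each comparison up to 5 genes of the other interferon lists with the smallest adjusted p, the 6 genes most similar over the libraries, interferon genes at 0 and up to 4 markers of a cell type. Where other genes are named it is said that their values had been seen, or they complete a count of 5 or fewer. With 2 libraries a group, precision is set mainly by the spread between libraries.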

Additional observations from a re-analysis of the deposited data

Results flagged for a closer look

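Each result here is a difference between the genotype effect in brown adipose and that in white adipose, brown minus white on the log2 scale, that passed an adjusted p of 0.05 in edgeR's quasi-likelihood test over 15559 genes. With 1 copy, where 32.6% of all genes passed, these were Rsad2 at 2.83 ± 0.46 (SE), Oasl2 at 1.49 ± 0.43, Cmpk2 at 1.19 ± 0.28, Irf9 at -0.53 ± 0.18, Traf3, an adaptor of nucleic acid sensors, at -1.52 ± 0.16, Helz2 at -1.94 ± 0.20, the kinase Ikbke at -2.94 ± 0.36, Irf8 at -3.26 ± 0.29 and Ciita at -3.94 ± 0.32. With 2 copies, where 42.2% passed, they were Rsad2 at 2.11 ± 0.46, Cmpk2 at 0.81 ± 0.28, Irf9 at -0.72 ± 0.18, Tyk2 at -1.47 ± 0.13, Traf3 at -1.57 ± 0.16, Irf1 at -1.63 ± 0.15, Irf8 at -3.87 ± 0.30 and Ciita at -4.59 ± 0.33. Other genes of the lists passed too. With 1 copy 12 of 43 other type I targets passed (6 higher, 6 lower), and 8 of 24 gamma targets (1 higher, 7 lower). Sensors and adaptors held 10 of 20 (3 and 7), receptors and kinases 4 of 11 (1 and 3) and negative regulators 5 of 8 (all lower). With 2 copies these counts were 15 (5 and 10), 13 (all lower), 11 (2 and 9), 7 (2 and 5) and 8 (all lower). In all 4 transgenic white libraries B and T cell markers were also far above wild type, and the part of those cells was not tested.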

How the results depend on the processing

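The genotype calls depended on the fit. Of the 9 genes, DESeq2 and a fit with no filter on low counts each called 1 in brown adipose with 2 copies over wild type (0 reported). In white adipose the count with 2 copies was 1 with no filter (2 reported, Rsad2 at an adjusted p of 0.0523), and with 1 copy it was 7 with DESeq2 (1 higher, 6 lower) and 5 in 1 fit of 12 libraries (2 reported). Over all genes the counts were 683 with DESeq2 and 353 with no filter for brown 2 copies over wild type (173 reported), 1044 with DESeq2 and 1004 in 1 fit for brown 1 copy (546), 974, 516 and 796 with DESeq2, no filter and 1 fit for brown 2 copies over 1 copy (262), and 1221 with DESeq2 and 780 in 1 fit for white 2 copies over 1 copy (285). Leaving out 1 library gave 0 to 1 of the 9 genes for brown 1 copy, 1 to 8 for white 2 copies, 0 to 8 for white 1 copy, 0 to 1 for white 2 copies over 1 copy, and 1 to 6 and 2 to 5 for the differences between tissues with 1 and 2 copies. Over all genes it gave 8 to 334 for brown 2 copies, 26 to 880 for brown 1 copy, 7 to 812 for brown 2 copies over 1 copy, 5113 to 7237 for white 1 copy and 0 to 586 for white 2 copies over 1 copy. The cause was not tested.

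Leaving out 1 library turned the sign of some values that had not passed the test. For brown 2 copies over wild type these were Irf7 (-0.32 to 0.23), Irf9 (-0.019 to 0.23), Oasl2 (-0.077 to 0.14), Mx1 (-1.95 to 0.093), Ifi44 (-0.42 to 0.47) and Stat2 (-0.15 to 0.015), and for brown 1 copy Irf7 (-0.11 to 0.16), Mx1 (-0.99 to 1.06), Ifi44 (-0.041 to 0.49) and Stat2 (-0.12 to 0.044). For brown 2 copies over 1 copy they were Ifit1 (-0.36 to 0.067), Irf7 (-0.35 to 0.20), Irf9 (-0.10 to 0.14) and Ifi44 (-0.62 to 0.27). For white 2 copies over wild type they were Ifit1 (-1.32 to 0.013), Isg15 (-1.16 to 0.45), Irf7 (-0.49 to 0.55), Ifi44 (-0.81 to 0.051) and Stat2 (-0.26 to 0.51), for white 1 copy Irf7 (-0.72 to 0.32), Mx1 (-0.012 to 1.75) and Stat2 (-0.44 to 0.34), and for white 2 copies over 1 copy Ifit3 (-0.044 to 0.28). For the difference between tissues they were Isg15 (-0.33 to 1.28), Irf7 (-0.28 to 0.75), Mx1 (-1.83 to 0.46) and Stat2 (-0.36 to 0.41) with 1 copy, and Ifit1 (-0.46 to 0.86), Isg15 (-1.21 to 0.40), Irf7 (-0.57 to 0.46) and Stat2 (-0.58 to 0.19) with 2 copies. No single gene's value turned its sign under the other alternatives, where 674 kept their side of the threshold, 6 lost it and 16 passed it newly. With median-of-ratios scaling 56.1% of genes called for the difference between tissues with 1 copy were higher, against 42.4% with TMM.

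No paired analysis was possible because the labels carry no replicate numbers and do not say which brown and white libraries share a mouse. With 2 libraries a group, a lone library left in a group was assumed to vary like the other groups. Mx1 in brown adipose, with 5 to 21 reads per library, is limited by depth.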
